A study of Mus musculus with 6 samples.

Results

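The actin, myosin and SRF contractile genes are 41 genes of the stress-fibre machinery and of the switch that transcribes it. They were taken by gene symbol from the 24940 genes of the deposited count table: 4 actins, 6 myosin chains, 11 thin-filament and smooth muscle proteins, 8 crosslinkers, LIM and filament proteins, the 4 genes of serum response factor (SRF) and its cofactors, and 8 genes of the RhoA, kinase and turnover arm. All 41 had a row. A filter on low counts left 12233 genes to test, 37 of the 41 among them. The 4 that did not pass were Actg2 (enteric smooth muscle actin), Cnn1 (calponin 1), Lmod1 (leiomodin 1) and Myocd (myocardin).

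Stress fibres are bundles of actin filaments that slide against myosin II, held together by alpha-actinin and anchored at focal adhesions. RhoA drives them through the kinases ROCK1 and ROCK2, which raise myosin light chain phosphorylation, and through LIM kinase, which inactivates the filament-severing protein cofilin. When actin polymerises, free actin monomers no longer hold back the coactivators MRTF-A (Mkl1) and MRTF-B (Mkl2), which enter the nucleus and switch on genes with SRF at their promoters, many of them actin cytoskeleton genes. In hepatic stellate cells, the pericytes of the liver sinusoid, this machinery builds up as the cells become myofibroblasts.

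RNA sequencing was done on primary hepatic stellate cells of female, genotypically wild-type C57BL6/JBomTac mice, 2 days after isolation. Treated cells were given 5 µM forskolin, a plant diterpene that activates adenylyl cyclase and so raises cAMP, for 3 h (3 libraries, A, B and C). The controls were given the same volume of the solvent DMSO for 3 h (3 libraries, A, B and C). The animals' age is not stated, and nothing in the labels says whether the replicates are separate isolations or dishes of 1 isolation. The p-values here therefore set the difference between the groups against the variation among these libraries alone, a variation that could be technical. The question addressed here is which of the contractile genes differ in transcript level after 3 h of adenylyl cyclase activation.

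The libraries held 9471383.5, 10607997 and 2770628.5 counts with forskolin (A, B, C) and 6753745.5, 9454832.5 and 3025989.5 with DMSO, so both C libraries were the shallowest of their group. Log2 levels of A and B correlated at 0.980 across genes with forskolin and 0.972 with DMSO, against 0.925 to 0.930 for pairs within a group that held a C library. Values without both C libraries are therefore also given wherever that changes a call. All 14 stellate cell markers were tested, and their summed level was 2161 to 2230 CPM (read counts scaled to library size) with forskolin and 1987 to 2097 CPM with DMSO. Summed markers of hepatocytes reached at most 20.6 CPM with forskolin and 9.49 CPM with DMSO, of endothelial cells 14.4 CPM with forskolin and 13.9 CPM with DMSO, and of Kupffer cells and macrophages 18.2 CPM with forskolin and 23.4 CPM with DMSO. Cholangiocyte markers summed to 9.33 to 44.0 CPM with forskolin and 12.2 to 21.1 CPM with DMSO, and portal fibroblast and mesothelial markers to 14.8 to 35.4 CPM with forskolin and 11.5 to 30.9 CPM with DMSO. Few of these other markers passed the filter on low counts and were tested. They were 2 of 8 for hepatocytes, 2 of 8 for endothelial cells and 2 of 8 for Kupffer cells and macrophages. For cholangiocytes they were 3 of 6, and for portal fibroblasts and mesothelial cells 1 of 8. None of those tested passed by edgeR with all 6 libraries, and none had an unadjusted p under 0.05. Limma-voom with sample quality weights called 1 cholangiocyte marker higher. Without both C libraries Spp1 and Sox9 of the cholangiocyte list were higher, and their part in the results without both C libraries was not tested. Krt7 (cholangiocyte list), Marco (Kupffer cell and macrophage list) and Thy1 and Upk3b (portal fibroblast and mesothelial list) had no count in any library. The other genes on these lists had counts, so the 4 genes do not show that such cells were absent. Mean levels were 22.5 CPM with forskolin and 9.51 CPM with DMSO for Spp1 (cholangiocyte list). They were 10.1 CPM with forskolin and 12.99 CPM with DMSO for Cd68 (Kupffer cell and macrophage list). Fbln2 (portal fibroblast and mesothelial list) stood at 27.4 CPM with forskolin and 19.6 CPM with DMSO.

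Smooth muscle cells share many of the contractile genes, and 4 of those on a vascular smooth muscle list were near 0 here. Actg2 had 2, 2 and 0 counts with forskolin and 9, 0 and 0 with DMSO, in libraries A, B and C. Cnn1 had 6, 4 and 0 counts with forskolin and none in DMSO, Lmod1 had 0, 13 and 0 with forskolin and 6, 15 and 0 with DMSO, and Myocd had 0, 0 and 3 with forskolin and 5, 0 and 0 with DMSO. A floor of 3 counts equals 0.317, 0.283 and 1.08 CPM in forskolin A, B and C and 0.444, 0.317 and 0.991 CPM in DMSO A, B and C. Such a floor accounts for counting error alone, as PCR copies could not be told from separate molecules. Each of these 4 genes had 0 counts in at least 1 library of each group and at most 15 in any library, and no fold change is given for them. Of the 8 genes on the vascular smooth muscle list, 6 are contractile genes described here. The list summed to 184 to 232 CPM with forskolin and 136 to 221 CPM with DMSO. Most of that was Smtn, smoothelin (159 ± 13.2 CPM with forskolin and 138 ± 32.0 CPM with DMSO). Mylk of the same list stood at 49.9 ± 16.5 CPM with forskolin and 46.0 ± 12.9 CPM with DMSO. Myh11 stood at 4.34 ± 2.04 CPM with forskolin and 4.69 ± 1.23 CPM with DMSO. Genes of this list were thus not all near 0.

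Promoters are shown before the values, since SRF binds a short element, the CArG box, in which a run of A and T bases stands between CC and GG. RefSeq windows (GRCm38.p6, from 250 bases before to 50 after each transcript start) matched 33 of the 41 genes, with 44 windows. The other 8 had no window and were not searched: Actb, Actg2, Myh11, Tagln, Tgfb1i1, Myocd, Rock1 and Diaph1. A CArG box lay in 7 of the 44 windows (15.9%), belonging to Myl9, Cnn2, Myl6, Actg1, Lima1, Filip1l and Srf, against 1.63% of the 32851 windows of all genes. The 41 genes were picked around SRF and contraction, so a CArG share above that of all windows is no independent result about them. The windows of Lima1, Filip1l and Srf are given because these genes had the lowest adjusted p-values among the 37. Of these genes only Lima1 passed with all 6 libraries (edgeR adjusted p = 0.041), while Filip1l (0.115) and Srf (0.223) did not. The windows of Cnn2, Myl6 and Actg1 carry the same element, and these genes did not pass either. Acta2, the usual myofibroblast marker, has none in its window and is shown with its CArG-like elements, in which at most 1 base of the centre is G or C. Each line gives the last 100 bases before the transcript start on the gene's own strand, with CArG boxes in capitals, or for Acta2 the CArG-like elements. The stretches are chr15:99820150-99820249 (minus strand) for Lima1, chr16:57549142-57549241 (plus) for Filip1l, chr17:46556163-46556262 (minus) for Srf, chr10:79988500-79988599 (plus) for Cnn2, chr10:128493010-128493109 (minus; the second of 2 Myl6 windows) for Myl6, chr11:120348496-120348595 (minus) for Actg1 and chr19:34255374-34255473 (minus) for Acta2.
Lima1: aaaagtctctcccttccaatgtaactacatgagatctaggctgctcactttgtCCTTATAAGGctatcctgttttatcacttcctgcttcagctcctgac
Filip1l: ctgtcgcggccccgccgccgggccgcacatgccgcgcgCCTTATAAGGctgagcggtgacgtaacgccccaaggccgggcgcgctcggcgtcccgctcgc
Srf: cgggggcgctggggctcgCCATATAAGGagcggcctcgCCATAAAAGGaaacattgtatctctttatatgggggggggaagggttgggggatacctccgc
Cnn2: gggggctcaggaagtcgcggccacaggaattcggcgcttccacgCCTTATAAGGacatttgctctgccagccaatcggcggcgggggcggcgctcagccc
Myl6: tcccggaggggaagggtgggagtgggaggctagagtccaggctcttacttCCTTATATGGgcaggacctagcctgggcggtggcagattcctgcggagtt
Actg1: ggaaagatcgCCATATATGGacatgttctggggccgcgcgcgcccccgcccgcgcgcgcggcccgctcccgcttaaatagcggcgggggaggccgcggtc
Acta2: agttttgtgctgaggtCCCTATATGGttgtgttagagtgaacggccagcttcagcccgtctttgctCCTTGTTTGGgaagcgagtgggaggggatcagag

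The box began 47 bases before the start in Lima1, 62 before it in Filip1l and 82 and 62 before it in Srf, whose own gene is a known SRF target. It began 56 bases before the start in Cnn2, 50 in Myl6 and 90 in Actg1. Lima1, Filip1l and Cnn2 held the same 10 bases, CCTTATAAGG. CArG-like elements, counted with the strict boxes, stood in 12 of the 44 windows (27.3%) and in 9.98% of all windows; this looser form was added after the data were seen. The cAMP response element, which CREB binds, was searched on both strands as the full TGACGTCA and as its shorter core TGACG, which the full form contains. The full form stood in 1 of the 44 windows (2.27%, Myl6), against 1.79% of all windows. The short form stood in 13 (29.5%), Filip1l and Srf among them, against 20.8% of all windows. These matches are descriptions of the letters in each window and no test was made of them.

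Of the 37 contractile genes tested, forskolin lowered 1 (Lima1) and raised 0, by the quasi-likelihood F test of edgeR with p-values adjusted over all 12233 genes (Benjamini-Hochberg, threshold 0.05). Across all tested genes 2.22% were higher and 0.572% lower by the same rule, so that 1 lower of 37 (2.7%) and 0 higher are each within 1 gene of the number those shares give for 37. At an unadjusted p under 0.05 the counts were 0 higher and 4 lower (Lima1, Filip1l, Srf and Mkl1), where all tested genes gave 6.81% higher and 5.26% lower. DESeq2, limma-voom, limma-voom with sample quality weights and edgeR's likelihood ratio test each called 0 higher and 2 lower, Lima1 and Filip1l. The shares of all tested genes called by these tools are not given here, so these counts have no background beside them. All forskolin libraries lay below all DMSO libraries for 2 of the 37 (5.41%; Lima1 and Srf) and above them for 0, against 9.46% below and 10.7% above over all tested genes. The median log2 fold change (forskolin over DMSO) of the 37 was −0.03, and that of all tested genes was 0.00. In bulk RNA, fewer cells of a type and less RNA per cell cannot be told apart.

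**Figure D1:**
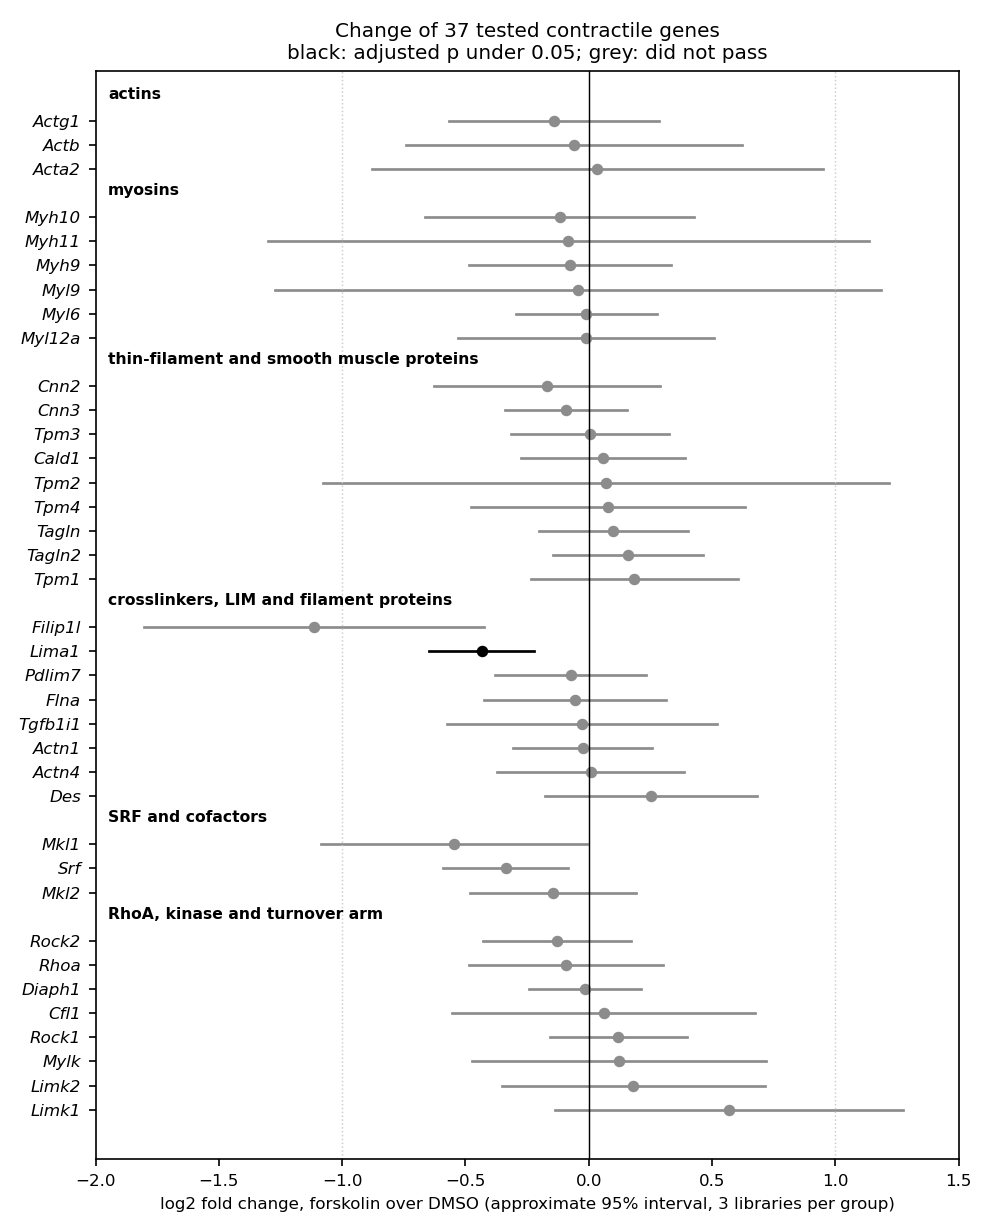
Log2 fold change of each of the 37 tested contractile genes (x axis, forskolin over DMSO; dot, edgeR estimate; bar, approximate 95% interval; 3 libraries per group), grouped by role. Lima1, the 1 black dot, passed at an adjusted p under 0.05; Filip1l is the lowest estimate at −1.11 and Limk1 the highest at 0.57.

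The spread around most contractile genes was narrow enough to limit the size of a change. The approximate 95% interval of the fold change lay within 2-fold either way for 31 of the 37 (83.8%), against 62.4% of all tested genes. The 6 whose interval passed 2-fold were Filip1l, Limk1, Mkl1, Myl9, Myh11 and Tpm2. For 30 of the 37 (81.1%) the log2 change was smaller than its standard error, as it was for 58.6% of all tested genes. The median standard error was 0.19 for the contractile genes and 0.23 for all tested genes. Log2 changes were below 0 for 22 of the 37 (59.5%) and for 49.2% of all tested genes. For 33 of the 37 the spread among the 3 DMSO libraries, as a log2 range, exceeded the change between the groups. The share of all tested genes for which it did is not given here. The median DMSO range was 0.38 for the contractile genes and 0.45 for all tested genes.

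Lima1 encodes EPLIN, a LIM protein that bundles actin filaments and slows their depolymerisation. It had 131, 131 and 129 CPM with forskolin (A, B, C) and 173, 181 and 175 CPM with DMSO. The forskolin libraries were nearly equal, and each lay below each of the DMSO libraries. The log2 fold change was −0.43 ± 0.10 (SE, n = 3 per group; edgeR adjusted p = 0.041), or 0.740-fold. It was −0.44 without both C libraries (edgeR adjusted p = 8.54e-04). The call was lost when any 1 library but forskolin C was left out: the adjusted p then lay between 0.0657 (without DMSO C) and 0.209 (without DMSO B), and it was 0.0342 without forskolin C, while the log2 change stayed between −0.44 and −0.41. No 50-base stretch of the Lima1 transcript (chr15:99778468-99820149, mm10) recurs in another gene's transcript.

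Filip1l, named for its likeness to a filamin A-interacting protein, had the largest log2 change of the 37. It had 31.3, 37.9 and 43.1 CPM with forskolin and 104, 94.6 and 38.3 CPM with DMSO. DMSO A and B stood well above the other 4 libraries, while DMSO C lay among the forskolin values, so the groups overlapped. The log2 fold change was −1.11 ± 0.31 and did not pass by the quasi-likelihood test (adjusted p = 0.115). It passed with DESeq2 (adjusted p = 0.0273), limma-voom (0.0226), limma-voom with quality weights (3.62e-04) and the likelihood ratio test (0.018). Without both C libraries it was −1.52 (edgeR adjusted p = 6.11e-08), and without DMSO C alone −1.43 (adjusted p = 0.00204). The transcript (chr16:57549242-57572804, mm10) lies within Cmss1, which runs on the opposite strand and shares no exon base with it. The kit did not mark strand, and Cmss1 itself stood at a log2 change of 0.09 (adjusted p = 0.945).

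The transcription factor arm had low estimates that did not pass in the 6 libraries. Srf had 123, 133 and 107 CPM with forskolin and 162, 150 and 149 CPM with DMSO. Each forskolin value was below each DMSO value. The log2 fold change was −0.34 ± 0.11 (edgeR adjusted p = 0.223), and −0.29 without both C libraries (adjusted p = 0.0378). Mkl1, which encodes MRTF-A, had 38.4, 29.4 and 20.99 CPM with forskolin and 48.4, 49.0 and 33.9 CPM with DMSO. Forskolin A stood above DMSO C, so the groups overlapped. Its log2 change was −0.55 ± 0.24 (edgeR adjusted p = 0.403), and −0.53 without both C libraries (adjusted p = 0.0447). Mkl2, encoding MRTF-B, was at 57.8 ± 8.49 CPM with forskolin and 64.7 ± 3.82 CPM with DMSO (SD, n = 3 each), with a log2 change of −0.14 ± 0.15. Mkl1 made up 48.8 ± 3.94% of the per-length MRTF transcripts with forskolin and 55.9 ± 6.50% with DMSO, and the groups overlapped.

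**Figure D2:**
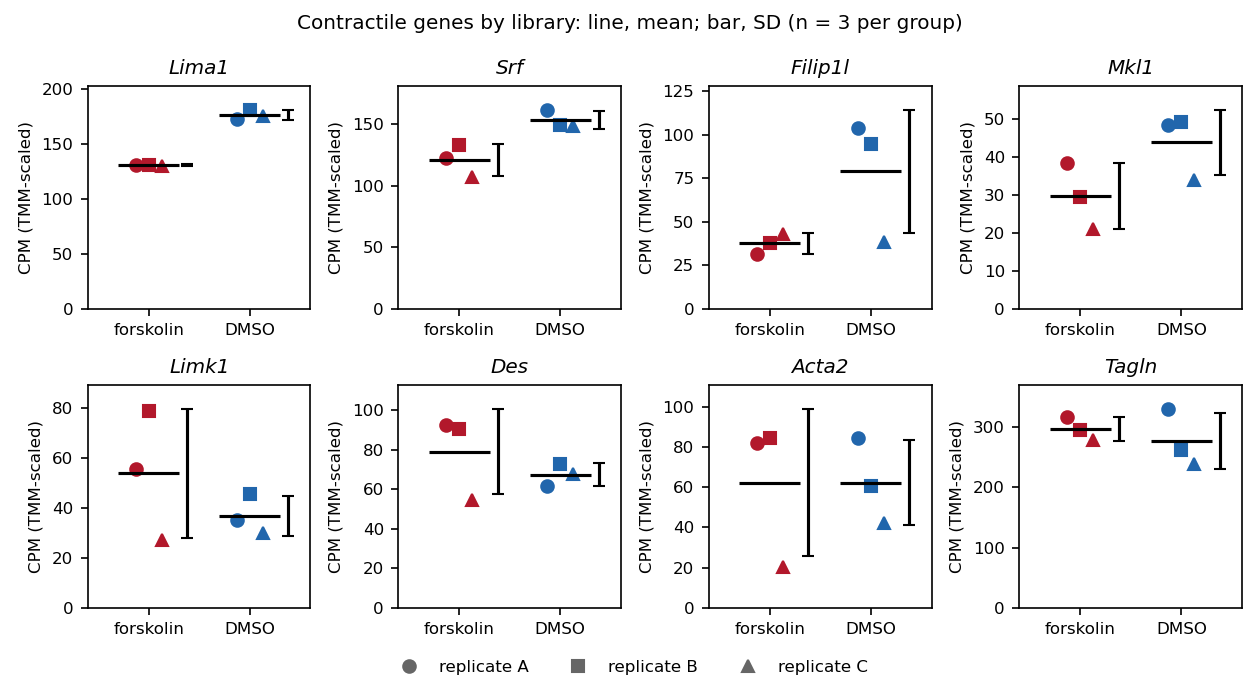
Level of 8 contractile genes in each library (y axis, CPM on TMM-scaled library sizes, starting at 0; circle, A; square, B; triangle, C; line, mean; bar, SD, n = 3 per group). Lima1 and Srf separate the groups; in Filip1l DMSO C lies at 38.3 CPM beside the forskolin libraries, and Acta2 in forskolin C lies at 20.2 CPM.

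The actins carried no call. Actb, cytoplasmic beta-actin, had 1241, 1137 and 2383 CPM with forskolin and 1534, 1212 and 2213 CPM with DMSO. Both C libraries stood high, and the log2 change was −0.06 ± 0.31 (edgeR adjusted p = 0.979). Acta2, smooth muscle alpha-actin, had 82.1, 84.6 and 20.2 CPM with forskolin and 84.3, 60.6 and 42.0 CPM with DMSO. Here both C libraries were the lowest of their group, forskolin C by far. Its log2 change was 0.03 ± 0.41 (edgeR adjusted p = 0.997), with a 95% interval from −0.88 to 0.95. It was 0.21 without both C libraries (adjusted p = 0.43). Actg1, cytoplasmic gamma-actin, was at −0.14 ± 0.19 in all 6 libraries and −0.25 without both C libraries (adjusted p = 0.0955). Per length, Actb held 77.5 ± 4.14% of the transcripts of the 4 actins with forskolin and 77.2 ± 3.10% with DMSO, Actg1 19.7 ± 2.16% with forskolin and 20.4 ± 2.02% with DMSO, and Acta2 2.801 ± 1.98% with forskolin and 2.35 ± 1.05% with DMSO. Of the 50-base stretches of Actg1, 56.7% recur in other genes' transcripts, and 14.2% of those of Actb, so how the authors' counting divided such reads is uncertain.

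The myosin chains carried no call either, and all 6 log2 changes lay between −0.12 and −0.01. Myh9, the heavy chain of nonmuscle myosin IIA, had 2380, 2320 and 2967 CPM with forskolin and 2805, 2405 and 2874 CPM with DMSO. The groups overlapped, at −0.08 ± 0.18 (edgeR adjusted p = 0.946). Per length it made up 97.2 ± 1.13% of the 3 heavy chains with forskolin and 97.2 ± 0.729% with DMSO. Myh10, the IIB heavy chain, followed with 2.62 ± 1.04% with forskolin and 2.64 ± 0.673% with DMSO, and Myh11, the smooth muscle heavy chain, with 0.195 ± 0.107% with forskolin and 0.191 ± 0.0578% with DMSO. Light chain shares were taken over the 3 light chains among the 41 genes, which leave out Myl12b. Myl12a, a regulatory chain, held 53.3 ± 5.44% with forskolin and 53.8 ± 3.14% with DMSO. Myl6, the essential chain, held 45.4 ± 4.80% with forskolin and 44.9 ± 3.19% with DMSO. Myl9, the smooth muscle regulatory chain, held 1.27 ± 0.842% with forskolin and 1.22 ± 0.177% with DMSO. Of the 50-base stretches, 46.5% of Myl6 and 29.6% of Myl12a recur elsewhere, those of Myl12a mostly in its paralog Myl12b. Myl9 rested on 83.5, 52.5 and 6.5 deposited counts with forskolin and 42, 39.5 and 21 with DMSO, and its log2 change was −0.04 ± 0.55 in 6 libraries and 0.42 without both C libraries (adjusted p = 0.697).

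None of the 9 tested thin-filament and smooth muscle genes passed. Tpm4, a short nonmuscle tropomyosin, had 811, 794 and 1437 CPM with forskolin and 919, 773 and 1186 CPM with DMSO. Both C libraries stood highest in their group, and the change was 0.08 ± 0.25 on the log2 scale (edgeR adjusted p = 0.963). Per length, Tpm4 made up 49.2 ± 2.89% of the 4 tropomyosins with forskolin and 50.3 ± 2.98% with DMSO, and Tpm1 34.9 ± 1.15% with forskolin and 32.9 ± 1.54% with DMSO. Tagln, transgelin or SM22-alpha, had 317, 295 and 278 CPM with forskolin and 329, 262 and 239 CPM with DMSO. Its log2 change was 0.10 ± 0.14 with a 95% interval from −0.20 to 0.40 (edgeR adjusted p = 0.88), a narrower interval than that of Acta2. Tagln2 was at 0.16 ± 0.14, Tpm1 at 0.18 ± 0.19, Cald1 (caldesmon) at 0.06 ± 0.15, and Cnn2 and Cnn3 (calponins 2 and 3) at −0.17 ± 0.21 and −0.09 ± 0.11. Tpm2, the muscle beta-tropomyosin, rested on 103, 103.5 and 6 deposited counts with forskolin and 67, 74 and 15 with DMSO, and was at 0.07 ± 0.52.

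Among crosslinkers and filament proteins, Actn4, nonmuscle alpha-actinin, had 1066, 1053 and 1389 CPM with forskolin and 1199, 1005 and 1285 CPM with DMSO. The groups overlapped, at 0.01 ± 0.17 on the log2 scale (edgeR adjusted p = 0.998). Flna, filamin A, had 2075, 2066 and 2358 CPM with forskolin and 2320, 2063 and 2370 CPM with DMSO, at −0.06 ± 0.17. Actn1 (alpha-actinin 1), Pdlim7 (a PDZ and LIM protein of stress fibres) and Tgfb1i1 (Hic-5, a focal adhesion LIM protein) lay between −0.07 and −0.03. Des, the intermediate filament protein desmin and a marker of rodent stellate cells, had 92.4, 90.7 and 54.4 CPM with forskolin and 61.5, 72.9 and 67.8 CPM with DMSO. Forskolin A and B were the highest 2 libraries and forskolin C was the lowest. The log2 change was 0.25 ± 0.19 in 6 libraries (edgeR adjusted p = 0.725) and 0.43 without both C libraries (adjusted p = 0.0206).

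In the RhoA, kinase and turnover arm none of the 8 passed. Rhoa had 411, 382 and 520 CPM with forskolin and 440, 382 and 578 CPM with DMSO, at a log2 change of −0.09 ± 0.18 (edgeR adjusted p = 0.925). Cfl1, cofilin 1, had 536, 486 and 986 CPM with forskolin and 599, 491 and 832 CPM with DMSO, at 0.06 ± 0.28 (adjusted p = 0.977). Both genes were highest in the C libraries and overlapped between the groups. Limk1, a LIM kinase that phosphorylates cofilin, had 55.4, 78.6 and 27.2 CPM with forskolin and 35.0, 45.4 and 29.8 CPM with DMSO. Forskolin A and B were the highest 2 libraries, and forskolin C was the lowest of all 6. The log2 change was 0.57 ± 0.32 in 6 libraries (edgeR adjusted p = 0.562) and 0.72 without both C libraries (adjusted p = 0.00685). Limk2 was at 0.18 ± 0.24, Rock1 at 0.12 ± 0.12, Rock2 at −0.13 ± 0.14, Diaph1 (the formin mDia1) at −0.02 ± 0.10 and Mylk (myosin light chain kinase) at 0.12 ± 0.27.

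Without both C libraries, a fit of 2 against 2, 38 of the contractile genes were tested and 6 passed. Des and Limk1 were higher (2 of 38, 5.26%), where all 12597 genes tested in that fit gave 5.86%. Lima1, Filip1l, Srf and Mkl1 were lower (4 of 38, 10.5%), where all tested genes gave 3.9%. These lower genes are the same 4 that had an unadjusted p under 0.05 with all 6 libraries, and the fits share their A and B libraries. The median log2 change was −0.06 for the contractile genes and −0.01 for all tested genes. By role, the median was −0.29 for SRF and its cofactors, −0.21 for the 3 actins and between −0.07 and −0.04 for the other roles. The actins went both ways, with Actb at −0.21 (adjusted p = 0.219), Actg1 at −0.25 and Acta2 at 0.21, and none passed. Other estimates that shifted without a call were Myh9 at −0.15, Rock2 at −0.20 and Tpm1 at 0.018.

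**Figure D3:**
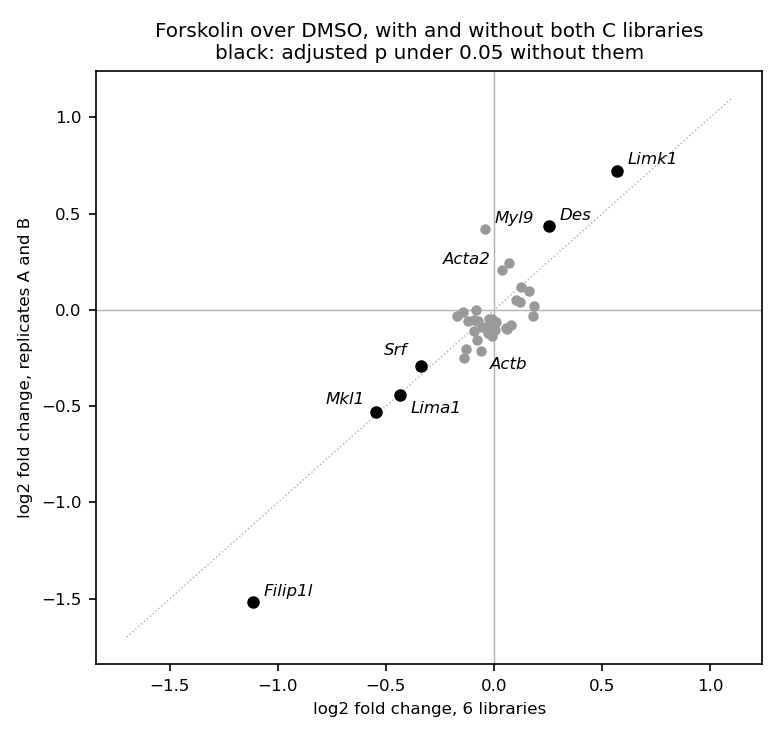
Log2 fold change (forskolin over DMSO) of the 37 tested genes with all 6 libraries (x axis) and with replicates A and B alone (y axis); the dotted line marks equal values and black dots had an adjusted p under 0.05 without both C libraries. The 6 black dots keep their sign and the grey dots lie nearer to 0 on the x axis; Myl9 moves to 0.42.

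Levels per transcript length spanned 3 orders of magnitude among the 37 genes. On the TPM scale (counts per transcript base, scaled to a fixed sum in each library; mean of the 6 libraries), Actb led with 2282, followed by Cfl1 with 1498, Tpm4 with 1286, Tagln2 with 983 and Myh9 with 968. The smooth muscle genes were spread over the whole range. Tagln stood at 498 TPM, Cnn2 at 341, Acta2 at 68.0, Myl9 at 14.2 and Myh11 at 1.91 TPM. Actb averaged 2173 ± 737 TPM with forskolin and 2391 ± 601 TPM with DMSO, and Cfl1 1489.5 ± 471 TPM with forskolin and 1506 ± 322 TPM with DMSO (SD, n = 3 each). Their ranges overlapped, though Actb was the higher in each library. Acta2 (67.5 ± 41.8 TPM with forskolin and 68.5 ± 24.8 TPM with DMSO) overlapped its neighbour in the order, Des (70.6 ± 23.7 TPM with forskolin and 61.8 ± 7.42 TPM with DMSO). It overlapped Srf with forskolin (79.9 ± 14.8 TPM) and lay below it with DMSO (105 ± 8.23 TPM). The 41 genes held 1.56, 1.52 and 1.84% of all counts with forskolin (A, B, C) and 1.76, 1.58 and 1.82% with DMSO.

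**Figure D4:**
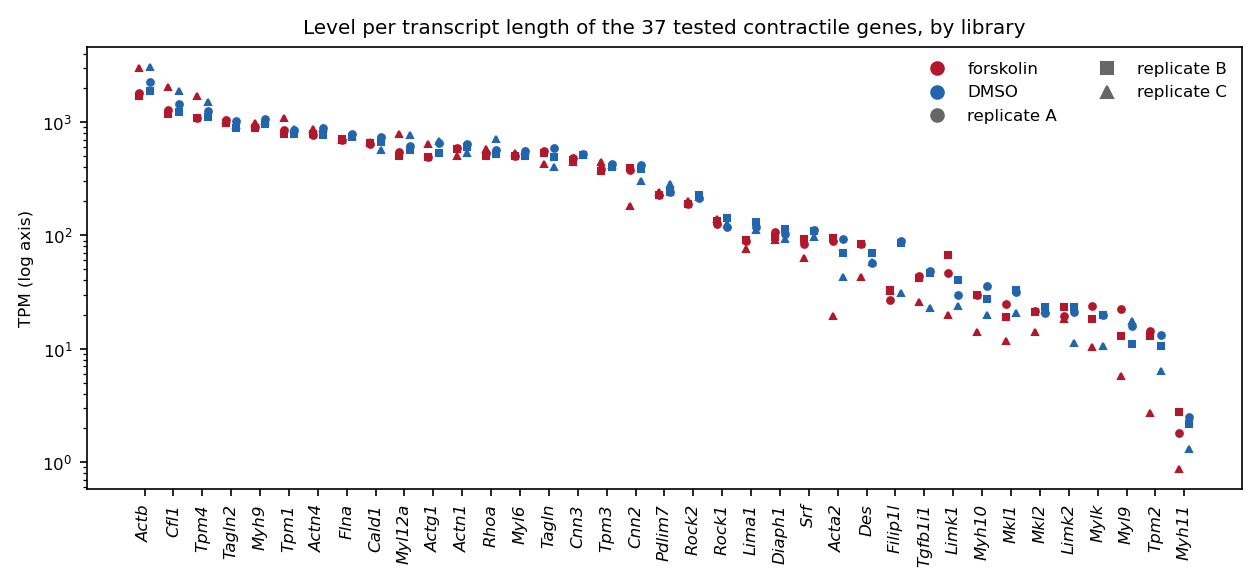
TPM of the 37 tested contractile genes in each library (log y axis; red, forskolin; blue, DMSO; circle, A; square, B; triangle, C), ordered by their mean over 6 libraries. Actb leads at 2282 TPM and Myh11 is last at 1.91 TPM; triangles lie above the other symbols for several genes on the left and below them for many on the right.

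The C libraries departed from A and B by gene density, in both groups. The mean of A and B over C was 3.62 for the forskolin library totals and 2.68 for the DMSO totals. Of the 17 genes with at least 1 count per transcript base, 15 lay below that ratio with forskolin and 14 with DMSO, with medians of 3.02 with forskolin and 2.45 with DMSO. Actb was at 1.97 with forskolin and 1.72 with DMSO. Of the 14 genes under 0.25 counts per base, 13 lay above it with forskolin and 12 with DMSO, with medians of 6.74 with forskolin and 4.36 with DMSO. Acta2 was at 16.2 with forskolin and 4.75 with DMSO, and Tpm2 at 17.2 with forskolin and 4.70 with DMSO. Filip1l was at 3.19 with forskolin, below the ratio of totals, and at 7.27 with DMSO, above it. Over all tested genes the dense ones had medians of 2.71 with forskolin and 2.23 with DMSO, and the sparse ones 4.28 with forskolin and 2.97 with DMSO. Dense genes make up 45.9% of the contractile genes and 3.58% of all tested genes. Total depth moves with this pattern, and its part in the spread of single contractile genes was not tested.

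**Figure D5:**
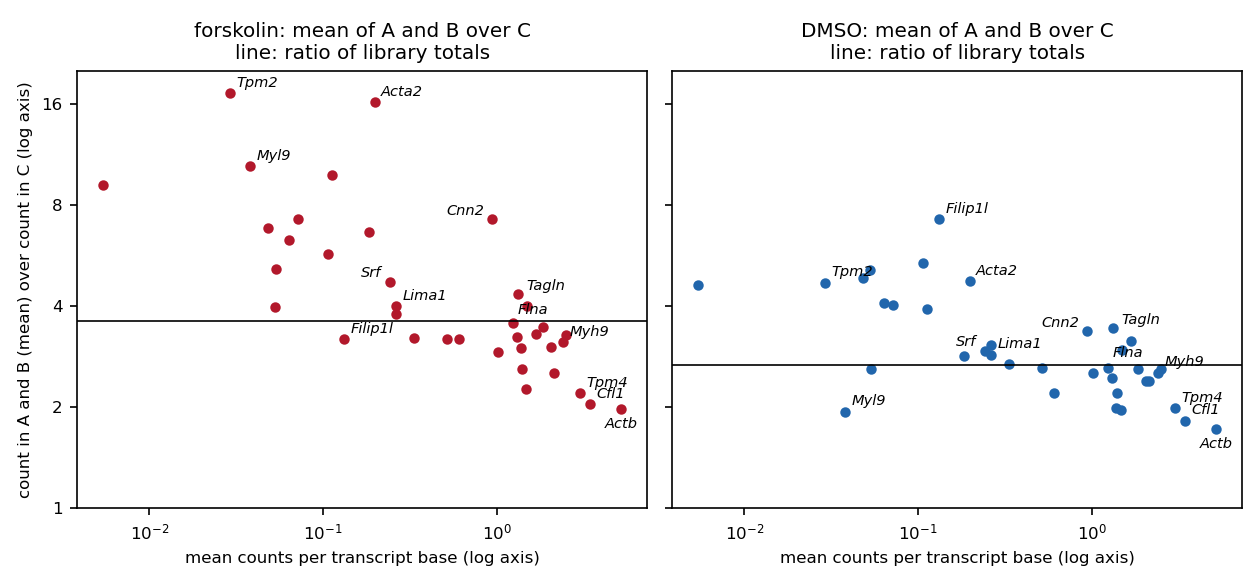
Mean count in A and B over the count in C (log y axis) against mean counts per transcript base (log x axis) for the 37 tested contractile genes, with forskolin (left) and DMSO (right); the line is the ratio of library totals. Dense genes such as Actb (1.97 with forskolin and 1.72 with DMSO) lie below the lines at 3.62 (forskolin) and 2.68 (DMSO), and sparse ones such as Acta2 (16.2 with forskolin and 4.75 with DMSO) above.

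Other genes of the pathway put these values in context. Beside the list counts below, all tested genes gave 2.22% higher and 0.572% lower by edgeR with all 6 libraries. Without both C libraries they gave 5.86% higher and 3.9% lower, and shares for the other tools are not given. Of 22 tested MRTF/SRF targets outside the 41, 3 were lower and 1 higher, with a median log2 change of −0.06. The lower ones were Cyr61 (−1.58 ± 0.15, edgeR adjusted p = 2.18e-04) and Ctgf (−1.06 ± 0.16, 0.00409), both matricellular proteins, and Ankrd1 (−0.72 ± 0.13, 0.0143), a cardiac ankyrin repeat protein. YAP also drives all 3. Without both C libraries 6 of 23 were lower, adding the focal adhesion and LIM genes Zyx, Fhl2 and Pdlim5. The call of Ankrd1 was lost without forskolin A or B or DMSO A or B, with an adjusted p of up to 0.109. The higher one was Synm, the intermediate filament protein synemin, a partner of desmin (41.8 ± 15.4 CPM with forskolin and 7.90 ± 2.98 CPM with DMSO; 2.46 ± 0.37, adjusted p = 0.00426). Of 12 tested immediate-early genes with SRF and TCF at their promoters, 7 were higher and 1 lower, with a median log2 change of 1.26, and 9 were higher and 1 lower with replicates A and B alone. Nr4a1 (3.44 ± 0.13, edgeR adjusted p = 4.48e-07), Fos (2.28 ± 0.20, 1.45e-04) and Fosb (141 ± 31.1 CPM with forskolin and 35.6 ± 4.3 CPM with DMSO; adjusted p = 1.64e-04) were among the higher; Fos and Nr4a1 are known CREB targets as well. Egr1, a zinc finger immediate-early factor, was the lower one (−1.31 ± 0.11, 8.90e-05). Of 7 tested SRF partners, which include Srf, Mkl1 and Mkl2, 0 passed by edgeR in either direction. At an unadjusted p under 0.05, 3 were lower and 0 higher. The other tools called 0, apart from limma-voom with quality weights, which called 1 lower. With replicates A and B alone edgeR called 3 lower (Elk3, Mkl1 and Srf). Elk4, a ternary complex factor that binds beside SRF, stood at 0.00 ± 0.12.

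Upstream and beside the contractile genes, few regulators moved. Of 37 tested genes of actin assembly and turnover 1 was lower, Cfl2, the muscle cofilin (187 ± 10.3 CPM with forskolin and 260 ± 24.1 CPM with DMSO; log2 change −0.48 ± 0.11, edgeR adjusted p = 0.0481), and 0 were higher, with 1 higher and 2 lower at an unadjusted p under 0.05. No other tool called a higher one, and limma-voom with quality weights called 2 lower; with replicates A and B alone, 1 (Arpc3) was higher and 3 (Cfl2, Wasl and Ssh2) lower. Cap1, a cyclase-associated actin monomer recycler, stood at −0.01 ± 0.19. The call of Cfl2 held without forskolin C and was lost without any other library, at an adjusted p of up to 0.280. Of 17 tested myosin regulators 1 was higher, Pak1, a kinase activated by Rac and Cdc42 that can phosphorylate LIM kinase (37.5 ± 5.10 CPM with forskolin and 18.1 ± 2.96 CPM with DMSO; 1.04 ± 0.21, adjusted p = 0.0287). Its call too held without forskolin C and was lost without any other library, at an adjusted p of up to 0.203. Of the 14 stellate cell markers, which include Des, Hgf (1.71 ± 0.20, adjusted p = 9.09e-04) and Hand2 (1.03 ± 0.19, 0.0152) were higher and 0 were lower by any of the tools, also at an unadjusted p under 0.05 by edgeR. The call of Hand2 was lost without forskolin A or DMSO B (adjusted p of up to 0.104).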

How the data were processed

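The deposited table gives expected counts of exon reads per gene for 6 polyA RNA libraries of hepatic stellate cells, per the file headers; its values come in steps of 0.5 and were rounded to whole numbers. STAR, HOMER and the mm10 build are named in the submitters' processing notes, and the library kit (NEBNext Ultra) in the labels' protocols. How duplicates were treated, how reads were assigned to genes and which annotation and tool versions were used is not given in these sources. The 41 genes, their roles and all lists were chosen with earlier results of these data known.

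Counts were fitted with edgeR 4.0.16 in R 4.3.3: filterByExpr, TMM scaling, robust quasi-likelihood F test, no covariate, Benjamini-Hochberg adjustment over all tested genes, calls at 0.05. The test was checked on simulated counts. CPM values use TMM-scaled library sizes, and TPM uses the deposited transcript lengths. Errors are SDs over 3 libraries or approximate SEs (the log2 fold change over the square root of F). Depth ran from 2770628.5 to 10607997 counts, and the common biological coefficient of variation was 0.213. Full values are given for genes called with or without both C libraries, for the most abundant gene per length of each role, and for Acta2, Tagln, Myh9, Srf and Rhoa; of each list, for up to 4 called genes by p or, where fewer than 2 passed, the 2 highest in CPM. Flna is named beside this rule, and 1 list and 1 gene are not reported here. Promoter letters are RefSeq's; 50-base stretches were matched over GENCODE M21 transcripts. Alternatives were RLE and upper-quartile factors, library totals, 3 other filters, DESeq2 1.42.0, limma-voom (3.58.1) with and without quality weights, a likelihood ratio test, a replicate block by letter, leaving out each library, leaving out both C libraries and, added after the data were seen, offsets that follow abundance.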

Additional observations from a re-analysis of the deposited data

How the results depend on the processing

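The count of lower contractile genes was 1 with all 6 libraries and under every scaling and filter. With no filter the gene was Filip1l (adjusted p = 2.51e-07), since Lima1 missed at 0.0636. The count was 2 with DESeq2, limma-voom, limma-voom with sample quality weights and the likelihood ratio test, for which no share of all tested genes is given. It was between 0 and 1 with 1 library left out, and 4 without both C libraries. The count of higher ones was 0 throughout except 2 without both C libraries. Nothing in the labels says whether the replicate letters pair the samples. Deviations from the group mean correlated at 0.0476, 0.133 and 0.150 for same-letter libraries (A, B, C). Forskolin A correlated better with DMSO B, at 0.103, while forskolin B and C each correlated best with the DMSO library of their own letter. These values cannot decide on a pairing, as each rests on a mean of 3 libraries and both C libraries stand apart in depth. With the replicate block the counts stayed 0 higher and 1 lower (Lima1), and Acta2, Tpm2 and Tpm3 turned to −0.064, −0.060 and −0.010 (log2).

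Of 700 values of single genes under 19 alternatives, 72 reversed, in 22 genes with log2 changes of at most 0.18 in size with all libraries; 0 of the reversed values was called. Without both C libraries the values were Myl9 at 0.42, Myh11 at 0.0007, Tpm3 at −0.10, Tpm4 at −0.081, Cald1 at −0.093, Actn4 at −0.060, Limk2 at −0.032 and Cfl1 at −0.097. Limma-voom put Myl9 at 0.22 and Tpm3 at −0.0055, and with quality weights Myl9 at 0.36, Tpm3 at −0.074, Tpm4 at −0.057, Cald1 at −0.023, Actn4 at −0.048 and Cfl1 at −0.082. Tpm3 and Actn4 reversed under upper-quartile factors (−0.022 and −0.020), library totals (−0.039 and −0.035) and offsets that follow abundance (−0.022 and −0.026).

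With 1 library left out in turn, the log2 change ran across 0 in these genes: Actb −0.47 to 0.20, Acta2 −0.23 to 0.40, Myh10 −0.26 to 0.10, Myh11 −0.48 to 0.17, Myl6 −0.10 to 0.049, Myl9 −0.61 to 0.27, Myl12a −0.32 to 0.17, Cnn2 −0.31 to 0.055, Tpm1 −0.051 to 0.32, Tpm2 −0.24 to 0.42, Tpm3 −0.14 to 0.097, Tpm4 −0.25 to 0.25, Cald1 −0.030 to 0.15, Actn1 −0.052 to 0.030, Actn4 −0.13 to 0.082, Pdlim7 −0.17 to 0.049, Tgfb1i1 −0.25 to 0.15, Rhoa −0.22 to 0.086, Limk2 −0.027 to 0.34, Cfl1 −0.32 to 0.29, Diaph1 −0.051 to 0.035 and Mylk −0.14 to 0.31. The causes were not tested. Few counts stand behind Myl9, Myh11 and Tpm2 in forskolin C, at 6.5, 6 and 6 deposited counts.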

Other observations

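The balance of the paired ROCK kinase genes was picked, after its values were seen, from the shares computed in 10 gene families, as the 1 family whose groups did not overlap. Rock1 made up 40.3, 41.6 and 40.9% of the per-length ROCK transcripts with forskolin (A, B, C) and 35.6, 38.2 and 36.6% with DMSO. Neither gene passed by itself (Rock1 log2 change 0.12 ± 0.12, Rock2 −0.13 ± 0.14), and the difference of the shares was not tested. By level, groups without overlap were common: 10.7% of all tested genes had all forskolin libraries above all DMSO libraries, and 9.46% had them below. Those percentages are for levels of single genes, and none was computed for balances within families. No weight is therefore put on 1 of 10 families without overlap.

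A pair of intermediate filament genes that stand beside the actin system had positive estimates. The pair was picked after its values were seen, and other intermediate filament genes are not given here. Synm passed at 2.46 ± 0.37 (edgeR adjusted p = 0.00426; between 4.81e-04 and 0.0304 with 1 library left out), and Des, whose protein synemin binds, passed without both C libraries at 0.43 (adjusted p = 0.0206) and not with all 6 at 0.25 (adjusted p = 0.725).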
